A study of Homo sapiens with 28 samples.

Results

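The regions described here carried an H3K4me3 peak in every phase of the cell cycle of human embryonic stem cells and an H3K27ac peak in early G1 alone. H3K4me3 peaks of the 4 phases were merged where they overlapped by at least 1 bp, which gave 32799 regions, and 15661 of these held a peak in all 4 phases and are called constant. Of the constant regions, 2439 overlapped an H3K27ac peak in early G1 and none in late G1, S phase or G2/M. The regions were thus chosen by the presence and absence of peaks in the deposited lists, and the counts that follow from that choice are given as a description. Constant regions acetylated in early G1 alone made up 15.6% of all constant regions.

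The cells were Fucci human embryonic stem cells, which carry fluorescent reporters whose abundance follows the cell cycle, and all of them grew without serum or feeder cells in a defined medium with Heregulin b1, Activin a, Longr3 IGF-1 and FGF2. Sorting gave 4 fractions: early G1, labelled DN, late G1, labelled KO2, S phase, labelled AzL, and G2/M, labelled AzH. In each, 4 histone marks were profiled by ChIP-seq. Each mark and phase had 1 library and 1 peak list, so no test between phases or between classes of regions was possible; intervals are exact Clopper-Pearson 95% intervals over regions, which cover counting error only. The fractions are sorted populations of cells of 1 labelled line, and the number of reads behind each list is unknown here.

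H3K4me3 is laid down at the starts of genes that are active or poised for activity, and most CpG-rich promoters carry it. H3K27ac is placed by the acetyltransferases p300 and CBP on promoters and enhancers in use, is removed by histone deacetylases, and occupies the same lysine that Polycomb repressive complex 2 methylates to H3K27me3. In pluripotent cells H3K4me3 and H3K27me3 occur together at many promoters of developmental genes, a state called bivalent. H3K4me1 is best known from enhancers and from the shoulders of promoters.

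Early G1 was the phase with the most single-phase acetylation among constant regions. H3K27ac in late G1 alone was found at 525 regions (3.35%), in G2/M alone at 81 (0.517%) and in S alone at 0 (0%), which allows a share of up to 0.0192% of constant regions taken as 3 regions, or 0.0236% as the exact upper limit. The other classes were 1683 regions acetylated in early and late G1 alone, 1172 in early G1, late G1 and G2/M, 1136 in all 4 phases, and 8104 in none. Most regions acetylated in a later phase were also acetylated in early G1. Of the constant regions acetylated in late G1, 87.3% were (4121 of 4722, 95% interval 86.3 to 88.2), of those acetylated in S phase 97.7% (1302 of 1332, 96.8 to 98.5), and of those acetylated in G2/M 94.3% (2598 of 2754, 93.4 to 95.2). The regions acetylated in early G1 alone were 35.5% of the 6867 constant regions acetylated in early G1 (34.4 to 36.7), against 11.1% for late G1 alone among 4722 acetylated in late G1 (10.2 to 12.05). The H3K27ac lists held 30168 peaks in early G1, 32521 in late G1, 10268 in S phase and 19525 in G2/M, so the early G1 list was not the longest.

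Absence from a list means that no peak was called, and not that the mark was absent. With each H3K27ac list cut to its 9662 tallest peaks, 1459 constant regions were acetylated in early G1 alone, 296 in late G1 alone, 42 in S alone and 142 in G2/M alone. Of the 1459, 624 belonged to the 2439. Early G1 alone thus stayed the most frequent single-phase class with lists of equal length, while most of its regions were different ones.

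The acetylation of the 2439 regions in early G1 was of ordinary height for its list. Height is a deposited signal value per peak from a column without a header; it was read as peak height from its values, its scaling is unstated, and every height, percentile and ratio rests on that reading. Peaks on chromosomes coded 22 to 24 have none, which leaves 2289 of the 2439 regions with a height. The tallest H3K27ac peak of a region ran from 17.4 to 64.6, with a median of 25.4 (quartiles 22.4 and 30.3), which is the 47.98th percentile of the early G1 list. Regions acetylated in all 4 phases stood at the 92.7th percentile of the same list with a median height of 47.2, and those acetylated in early and late G1 alone at the 67.9th. Cut into 4 equal bins by height, the list's lowest bin held 523 of the 2289 regions (22.8%, 21.1 to 24.6), its tallest bin 376 (16.4%, 14.9 to 18.01) and its tallest 10% held 70 (3.06%, 2.39 to 3.85). These values come from the list that chose the regions and are not a test of it.

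H3K27ac lay as a short patch within a longer H3K4me3 region. The summed H3K27ac length was 225 bp at the median (quartiles 150 and 375). Single peaks there had a median of 200 bp, against 250 bp over the early G1 list. The median share of the merged region under H3K27ac was 17.2%, against 50% in regions acetylated in all 4 phases. One H3K27ac peak was present in 1912 of the 2439 regions, a pair in 456 and 3 or more in 71. Of the 3054 pairs of a region and a peak, 94.7% had the peak wholly inside the region. The peak's midpoint fell within the inner part of the region, the central 1/3 of its width, for 48.1% (46.3 to 49.9), against 36.9% in regions acetylated in all 4 phases (35.0 to 38.9). Regions acetylated in early and late G1 alone were close to the early G1-only ones in placement, with 45.2% (43.2 to 47.1) and 93.7% of peaks wholly inside, so this placement was shared by both. Their H3K27ac covered more of the region, 24.4%, and 1009 of the 1683 had 1 peak. At regions acetylated in late G1 alone, late G1 peaks had a median of 150 bp and covered 10.9% of the region. For 37.6% of them (33.6 to 41.6) the midpoint fell within the central 1/3.

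Among all constant regions acetylated in early G1, the height of that peak went with what was listed in the other phases. With these regions cut into 5 equal bins by early G1 height, 66.1% of the lowest bin were acetylated in early G1 alone (63.5 to 68.7), 34.6% of the middle bin, and 5.36% of the tallest (4.20 to 6.72). The share with a late G1 peak went the other way, with 29.7% in the lowest bin and 92.7% in the tallest, and the share with an S-phase peak was 2.60% and 52.5%. The 2439 regions lay mostly, but not only, among the lower early G1 peaks of constant regions: 70 of them stood in the tallest bin, from a height of 43.6 upwards. The early G1 only share is the class itself, and the heights come from the list that chose it, so these shares are a description.

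**Figure D1:**
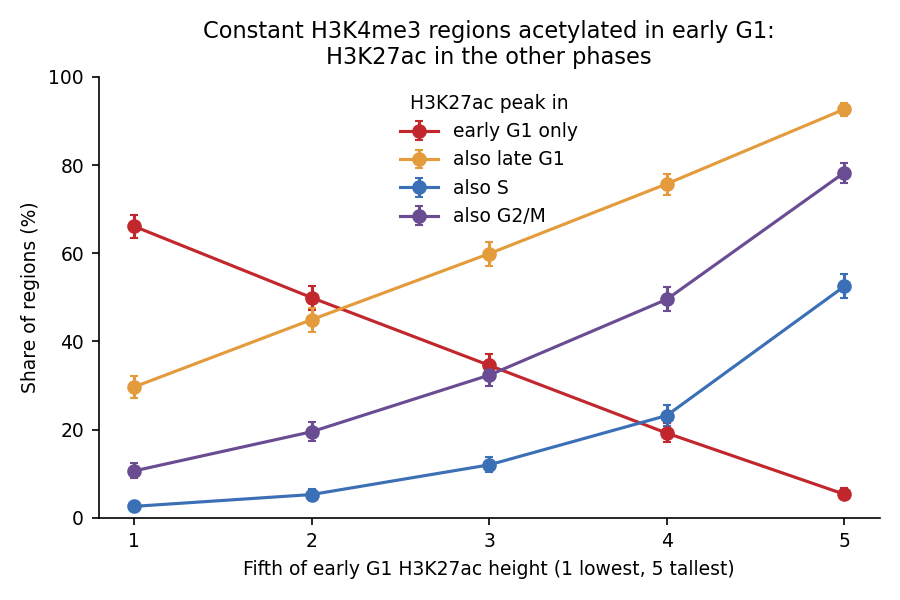
Share of constant H3K4me3 regions acetylated in early G1 that had H3K27ac in early G1 only, or also in late G1, S phase or G2/M (vertical axis, %), in 5 equal bins of early G1 H3K27ac height (horizontal axis, 1306 or 1307 regions in each). Bars are exact 95% intervals. The early G1 only share is 66.1% in the lowest bin and 5.36% in the tallest.

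The 8 regions with the tallest early G1 acetylation show that tall peaks could lack a partner in the other lists. The tallest lay at chr2:74617901-74619225 (coordinates as deposited, read as hg19), with an H3K27ac height of 64.6 over 500 bp. Next came chr19:3499651-3500925 with a height of 63.0 over 650 bp, and chr19:8008826-8009225 with 61.8 over 325 bp. chr1:28557976-28559700 had a height of 61.3, and chr19:58694301-58695775 had 56.9. The remaining 3 were chr6:34203476-34205150 (56.3), chr20:35401151-35402725 (55.9) and chr14:21571301-21572925 (55.7). All 8 stood at or above the 96.6th percentile of the early G1 list and none carried H3K27me3 in any phase. The third and the sixth had H3K27ac within 2.5 kb in each other phase, and the other 6 had none within that distance.

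At the low end, H3K27ac heights were close to the lowest in the list. chr20:62184976-62185950 had an H3K27ac height of 17.4 over 75 bp, and chr14:89028851-89030625, chr15:74907101-74907975 and chr2:5832126-5837950 each had 18.6 over 75 bp, against a 5th percentile of 19.9 for the list. Their H3K4me3 was not low: early G1 H3K4me3 heights of these 4 were 193, 177, 198 and 229, against a median of 134 over constant regions.

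H3K4me3 at the 2439 regions stood above the median of constant regions in every phase, and most so in early G1. Relative height is that of the tallest H3K4me3 peak in a region over the median of constant regions in the same library. The median was 1.46 in early G1 (quartiles 0.841 and 2.10), 1.13 in late G1 (0.666 and 1.73), 1.23 in S phase (0.670 and 1.87) and 1.15 in G2/M (0.667 and 1.77). Regions acetylated in all 4 phases had medians of 2.19, 1.81, 2.12 and 1.92 in the same order, and regions with neither H3K27ac nor H3K27me3 in any phase had 0.742, 0.770, 0.758 and 0.736. The early G1-only acetylated regions thus lay between these 2 classes in each phase, with wide and overlapping quartiles.

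**Figure D2:**
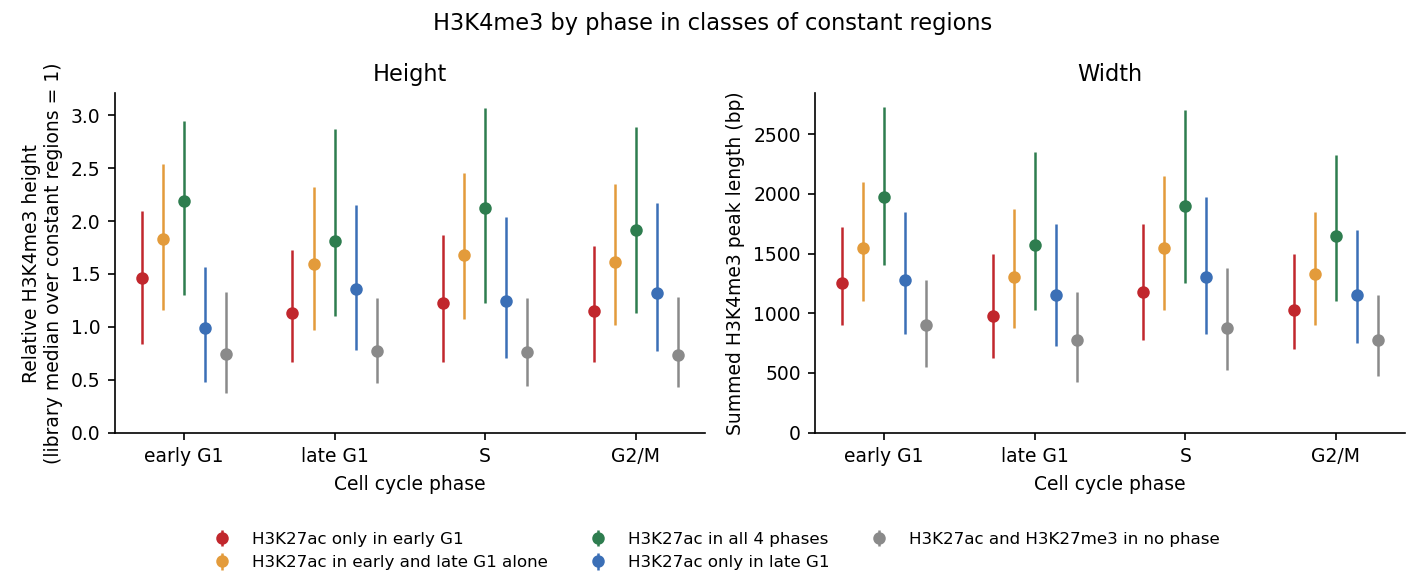
Relative H3K4me3 height (left) and summed H3K4me3 peak length in bp (right) by phase for 5 classes of constant regions; points are medians over regions and bars run from the lower to the upper quartile. Regions acetylated in early G1 only have a median relative height of 1.46 in early G1 and 1.13 to 1.23 in the other phases, between regions acetylated in all phases and regions with neither H3K27ac nor H3K27me3.

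Relative H3K4me3 height was lower in each other phase than in early G1 at about 7 in 10 of the regions. It was lower in late G1 at 1611 of 2289 (70.4%, 68.5 to 72.2; all constant regions 50%), in S phase at 1614 (70.5%, 68.6 to 72.4; all 53%) and in G2/M at 1640 (71.6%, 69.8 to 73.5; all 52.7%). The median log2 ratio to early G1 was -0.34 in late G1, -0.26 in S phase and -0.32 in G2/M, against 0.00, -0.04 and -0.05 over all constant regions. All 3 ratios share the early G1 library. Early G1 was the phase of highest relative height at 1326 regions (57.9%, 55.9 to 60.0; all 38.2%).

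Changes of more than 2-fold were few, and more often towards lower values than over all constant regions. A relative height more than 2-fold lower than in early G1 was found at 219 regions in late G1 (9.57%; all constant regions 5.8%), 111 in S phase (4.85%; all 2.78%) and 225 in G2/M (9.83%; all 5.78%). One more than 2-fold higher was found at 84 in late G1 (3.67%; all 15.1%), 61 in S phase (2.66%; all 10.5%) and 128 in G2/M (5.59%; all 14.3%). Most of the 2289 regions, then, kept their relative height within 2-fold of early G1 in each of the other phases.

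The lower H3K4me3 ratio was shared by other regions acetylated in early G1. Regions acetylated in all 4 phases had a median log2 ratio of -0.25 for late over early G1, and 62.7% of them were lower in late G1 (59.8 to 65.6). Regions acetylated in late G1 alone had the opposite sign, with 0.53 in late G1, 0.33 in S phase and 0.54 in G2/M, so that their H3K4me3 was relatively low in early G1 against each of the other phases. Regions with neither mark had 0.10, 0.01 and 0.03. The libraries of H3K4me3 and H3K27ac are separate, but those of 1 phase come from the same sorted fraction. Measured against the median of regions acetylated in all phases in place of all constant regions, relative height was lower in late G1 at 55.2% of the 2289 regions and not 70.4%, so the size of the difference rests on the regions taken as the scale.

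The lower ratio was present at each level of height. With all constant regions cut into 5 equal bins by their S-phase relative height, the median log2 ratio of late over early G1 at the early G1-only acetylated regions was -0.32, -0.41, -0.41, -0.40 and -0.15 from the lowest to the tallest bin (274 to 634 regions in each). Regions with neither mark had 0.23, 0.12, -0.01, -0.02 and 0.28. Within each of the 5 levels the early G1-only acetylated regions had a lower median than regions with neither mark. Regions acetylated in early and late G1 alone had -0.25, -0.36, -0.32, -0.33 and -0.05. Regions acetylated in all 4 phases had -0.16, -0.51, -0.32, -0.46 and -0.05. They lay below the early G1-only acetylated regions in the bins with -0.51 and -0.46 and above them in the others.

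**Figure D3:**
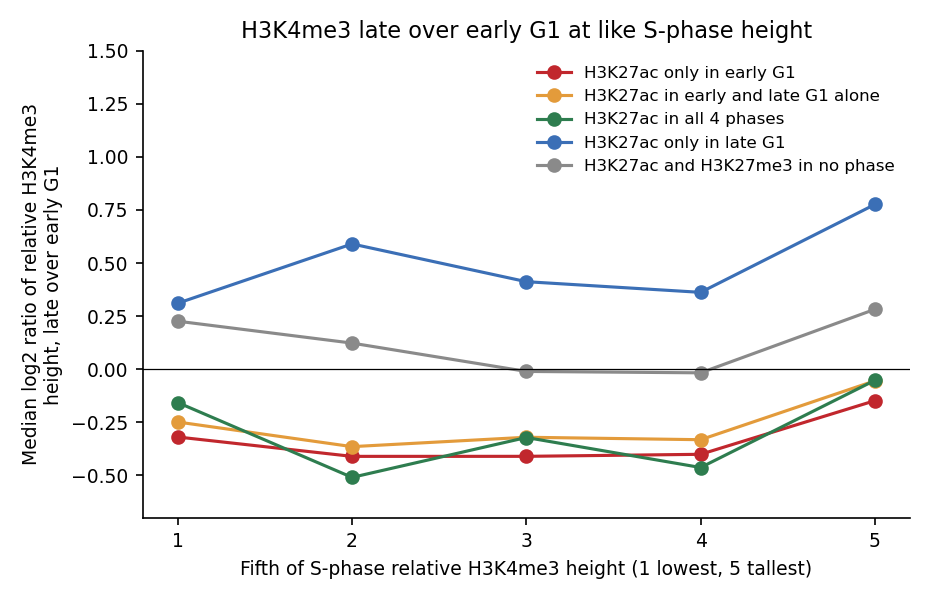
Median log2 ratio of relative H3K4me3 height, late over early G1 (vertical axis), in 5 equal bins of S-phase relative H3K4me3 height over all constant regions (horizontal axis), for 5 classes; lines join medians of the same class and no replicate error exists. Regions acetylated in early G1 only run from -0.41 to -0.15, near the other classes with early G1 acetylation, and regions acetylated in late G1 only lie above 0 throughout.

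H3K4me3 was also longest in early G1 at these regions. The summed peak length had a median of 1250 bp in early G1, 975 bp in late G1, 1175 bp in S phase and 1025 bp in G2/M, against 1125, 950, 1100 and 950 bp over all constant regions. It was smaller than in early G1 at 2002 of 2439 regions in late G1 (82.1%, 80.5 to 83.6; all 70.2%), 1475 in S phase (60.5%, 58.5 to 62.4; all 54.2%) and 2065 in G2/M (84.7%, 83.2 to 86.1; all 73%). Regions acetylated in all phases gave 85.8%, 62.6% and 85.6%. Taken relative to each library's median width, late G1 width was smaller at 57.2% of the 2439 regions, so a large part of the difference lay in the lists as a whole.

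The regions differed widely among themselves in H3K4me3 width. The widest on chromosomes with heights lay at chr2:5832126-5837950, with 5400, 5725, 5625 and 4900 bp of H3K4me3 in early and late G1, S phase and G2/M. chr8:91652626-91657925 had 4475, 5250, 4800 and 4375 bp, chr17:4849451-4854600 had 3775, 4100, 4950 and 3675 bp, and chr20:10651501-10656025 had 3950, 4400, 4325 and 3500 bp. In all 4 the late G1 width exceeded the early G1 width, as it did at 381 of the 2439 regions (15.6%; all constant regions 26.8%). The narrowest were at chr6:7261201-7261550, with 250, 75, 100 and 200 bp, and at chr11:67572926-67573225, chr3:75484451-75484775 and chr12:105352201-105352550. Their early G1 H3K4me3 heights of 25.1, 25.1, 38.5 and 37.8 were low against the list's median of 63.8, though above its 5th percentile of 18.8.

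Single regions showed H3K4me3 ratios in both directions. The largest ratio of late over early G1 was at chr7:765826-768600, where H3K4me3 heights were 34.3, 208, 142 and 206 in early and late G1, S phase and G2/M (log2 ratio of relative height 3.64). chr18:46064926-46067550 had heights of 115, 320, 272 and 421 (2.51), chr12:127650251-127650775 had 38.8, 85.4, 56.1 and 74.9 (2.17), and chr6:44093826-44096625 had 382, 814, 817 and 862 (2.12). In these 4 early G1 was the lowest of the 4 phases. All except the one on chromosome 7 also carried H3K27me3 in 2 or more phases.

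At the other end, the 4 regions with the smallest ratios had no H3K27me3 in any phase. chr1:228643801-228645625 had H3K4me3 heights of 230, 26.1, 85.5 and 38.8 (log2 ratio of late over early G1 -2.11). chr6:99841201-99842250 had 147, 18.02, 36.6 and 27.9 (-2.00), chr12:117256576-117257425 had 171, 20.995, 53.7 and 48.7 (-2.00), and chr19:17416501-17417550 had 206, 26.5, 71.5 and 38.98 (-1.93). Early G1 was the highest and late G1 the lowest of the 4 phases in each. The 4 late G1 heights lay below that list's median of 36.8.

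Taller early G1 acetylation went with a slightly lower H3K4me3 ratio across the regions. In 4 equal bins by H3K27ac height, the lowest (17.4 to 22.4) had a median log2 ratio of late over early G1 of -0.26 and the tallest (30.3 to 64.6) one of -0.46. Early G1 relative H3K4me3 height was 1.196 in the first of these bins and 1.62 in the last, and late G1 height 1.03 and 1.17. Across the 2289 regions, which share their libraries, Spearman's rho between H3K27ac height and relative H3K4me3 height in early G1 was 0.16, and between H3K27ac height and the late over early G1 ratio it was -0.13. These are weak relations given as a description.

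H3K27me3 was scarce at the 2439 regions compared with all constant regions. It overlapped 132 in early G1 (5.41%, 4.55 to 6.39; all constant regions 18.5%), 123 in late G1 (5.04%, 4.21 to 5.99; all 18.4%), 88 in S phase (3.61%, 2.90 to 4.43; all 14.6%) and 87 in G2/M (3.57%, 2.87 to 4.38; all 15.5%). At constant regions with H3K27ac in no phase the shares were 31.7%, 31.2%, 24.6% and 26.6%, and at regions acetylated in all 4 phases 1.85%, 2.55%, 2.55% and 1.76%. Regions acetylated in late G1 alone had 10.9%, 11.6%, 10.3% and 10.5%. Regions acetylated in early and late G1 alone had 3.62%, 3.74%, 2.97% and 2.79%. The early G1-only acetylated regions thus stood nearer to the classes acetylated in early G1 and further phases than to regions without acetylation. The low share was not particular to them.

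**Figure D4:**
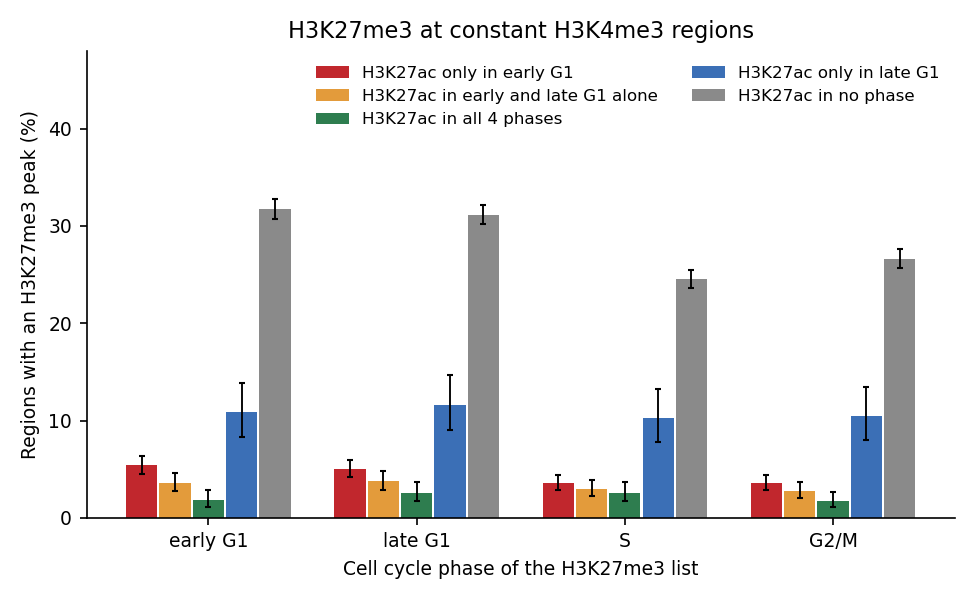
Share of constant regions with an overlapping H3K27me3 peak (vertical axis, %, bars with exact 95% intervals) in each phase, for 5 classes by H3K27ac. The share is 3.57% to 5.41% at regions acetylated in early G1 only and 24.6% to 31.7% at regions with H3K27ac in no phase.

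H3K27me3 was rarely listed in the phases that lacked acetylation. At least 1 phase had H3K27me3 at 172 of the 2439 regions (7.05%, 6.07 to 8.14; all constant regions 21.6%), and 58 had it in all 4 (2.38%, 1.81 to 3.06; all 12.4%). The 172 include 33 regions with H3K27me3 in early G1 alone, the phase with acetylation. Late G1 alone had 14, S alone 9 and G2/M alone 1. Shares of these 1-phase patterns over all constant regions were not computed, so the counts are a description only. The remaining 2267 regions had H3K27me3 in no phase. At 64 regions an H3K27ac and an H3K27me3 peak overlapped each other in early G1 (2.62%, 2.03 to 3.34). Over the 7557 constant regions with H3K27ac in at least 1 phase, such an overlap in any phase was found at 3.24%. At regions acetylated in late G1 alone it was found at 8.76% (6.49 to 11.5). At those acetylated in early and late G1 alone it was found at 2.496% (1.804 to 3.358). A region acetylated in several phases could show the overlap in any of them, so shares of such classes are not directly comparable. The early G1-only share was thus below that of late G1 alone and close to that of early and late G1 alone.

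Regions with H3K27me3 differed from the rest in their H3K4me3. The 163 with a height and H3K27me3 in at least 1 phase had median relative H3K4me3 heights of 0.827, 0.992, 0.847 and 0.947 in early and late G1, S phase and G2/M, and the 2126 with H3K27me3 in no phase had 1.51, 1.15, 1.24 and 1.16. The median log2 ratio of late over early G1 was 0.22 in the first group and -0.37 in the second, so the signs were opposite. A lower ratio without H3K27me3 was not particular to the class. Constant regions with H3K27ac in no phase had 0.28, and those of them without H3K27me3 in any phase had 0.10. The early G1 H3K27ac of the 163 and the 2126 regions stood at the 36.3th and the 48.7th percentile of the list.

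Of the 58 regions with H3K27me3 in all phases, the tallest by mean relative H3K4me3 height lay at chr1:16938476-16940500, with H3K4me3 heights of 389, 270, 273 and 437 in early and late G1, S phase and G2/M. chr1:143913551-143916775 had 328, 203, 215 and 256, and chr6:126068626-126071800 had 135, 191, 205 and 325. chr7:69063376-69066250 had 214, 189, 217 and 117. The last of the 6 named were chr1:144593151-144594650 and chr9:2014476-2018425. Their early G1 H3K27ac peaks were low to middling, from the 9.86th to the 64.0th percentile of the list.

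Acetylation next to the regions was uncommon in the phases where the regions themselves had none. An H3K27ac peak outside the region but within 2.5 kb was present at 388 of 2439 in late G1 (15.9%, 14.5 to 17.4), 97 in S phase (3.98%, 3.24 to 4.83) and 259 in G2/M (10.6%, 9.42 to 11.9). Over all constant regions without an overlapping peak in that phase the shares were 12.9%, 4.84% and 8.89%, lower than at the early G1-only acetylated regions in late G1 and G2/M and higher in S phase. Regions with neither H3K27ac nor H3K27me3 had 15.2%, 3.73% and 8.77%. Regions acetylated in early and late G1 alone had higher shares than the early G1-only ones, with 7.31% in S phase and 14.5% in G2/M. In early G1, 584 of the 2439 regions had a further H3K27ac peak in this flank (23.9%, 22.3 to 25.7; all constant regions 20.7%). At least 1 of the other phases had H3K27ac in the flank at 470 regions (19.3%, 17.7 to 20.9; all constant regions without H3K27ac in these phases 14.6%), and all 3 had it at 72 (2.95%, 2.32 to 3.703; all 2.23%). At regions with neither mark these 2 shares were close to that, with 17.5% (16.5 to 18.6) and 2.85% (2.41 to 3.34).

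Part of the flank peaks of other phases overlapped an early G1 H3K27ac peak, as did those at other constant regions. Of the 388 regions with late G1 H3K27ac in the flank, 232 had such a peak that overlapped an early G1 H3K27ac peak (59.8%, 54.7 to 64.7), and the like counts were 74 of 97 in S phase (76.3%, 66.6 to 84.3) and 173 of 259 in G2/M (66.8%, 60.7 to 72.5). Over all constant regions with a flank peak but no overlapping one the shares were 49.4%, 72.9% and 58.7%. A flank peak on another H3K4me3 region was present at 203 of 388 in late G1 (52.3%, 47.2 to 57.4), against 46.2% over all such constant regions. Farther out, the nearest late G1 H3K27ac peak was 33525 bp away at the median, against 142350 bp for S phase and 64225 bp for G2/M. For regions with neither H3K27ac nor H3K27me3 these distances were 35450, 163075 and 75500 bp.

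**Figure D5:**
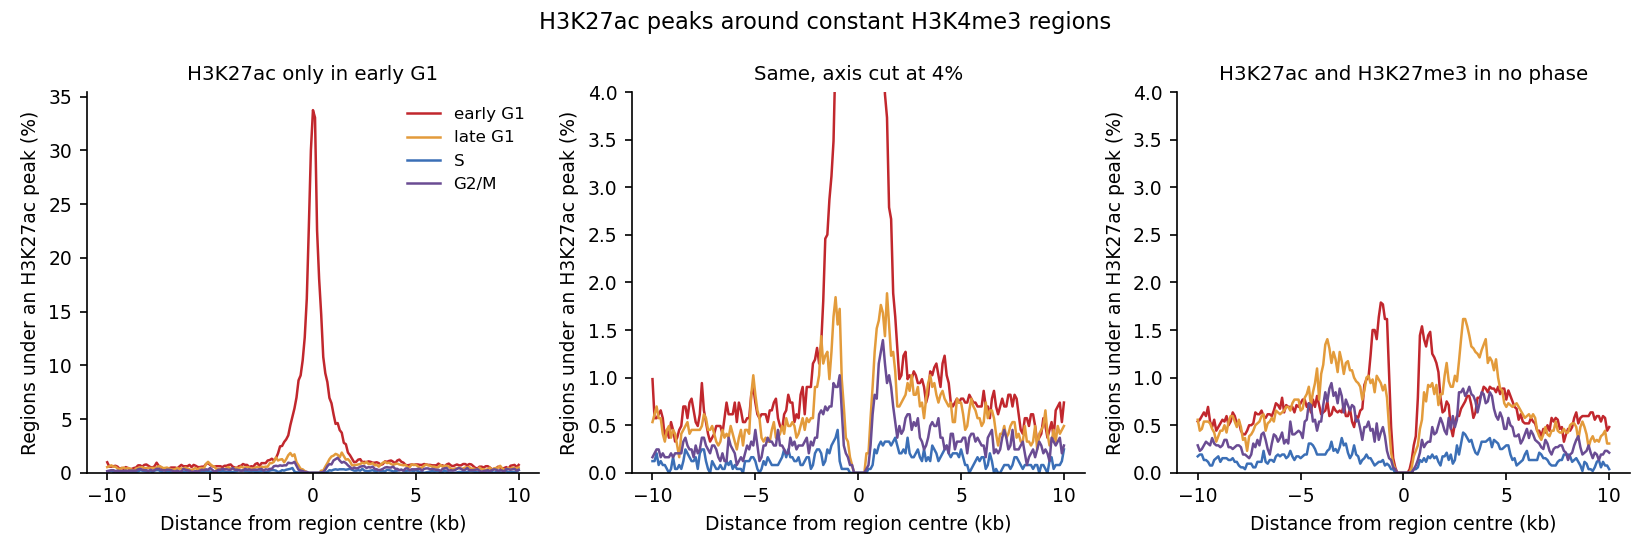
Share of regions lying under an H3K27ac peak of each phase (vertical axis, %) by distance from the region's centre (horizontal axis, kb), for regions acetylated in early G1 only on a full axis and on an axis cut at 4%, and for regions with neither H3K27ac nor H3K27me3. Early G1 reaches 33.7% at the centre by choice of the regions; late G1 reaches 1.89%, G2/M 1.39% and S phase 0.451% beside the regions.

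Around the regions the other phases were acetylated at a low rate. Between 1 and 2.5 kb from the centre, 1.14% of the regions lay under a late G1 H3K27ac peak on average, 0.251% under an S peak and 0.684% under a G2/M peak, against 0.469%, 0.0957% and 0.260% between 5 and 10 kb. The rule empties the region itself in these phases, so only the part outside it is informative. The widest regions reached into the span from 1 to 2.5 kb, where they could hold no such peak. Regions with neither mark had 0.924%, 0.150% and 0.466% between 1 and 2.5 kb. Their median merged width was 1075 bp, against 1375 bp at the early G1-only acetylated regions, so the shares of the 2 classes are not strictly comparable.

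Of the 72 regions with H3K27ac in the flank in all 3 other phases, those with the tallest early G1 acetylation were chr19:8008826-8009225 and chr6:34203476-34205150, described above. They were followed by chr6:148663601-148665500 (H3K27ac height 48.6), chr7:99678176-99679575 (46.3), chr12:111842801-111843175 (42.4) and chr19:39903126-39905600 (42.0). The first of these and the one on chromosome 12 were short, with 400 and 375 bp of H3K4me3 in early G1.

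The edge of the class rested on small gaps and overlaps between a region and H3K27ac of another phase. Just inside it, H3K27ac of another phase began directly beside the region, with a gap of 0 bp, at chr17:16117426-16119475 (G2/M), chr6:97372051-97373175 (late G1) and chr20:44992176-44993425 (late G1). Just outside it, such a peak overlapped the region by 25 bp at chr19:1018876-1021325 (late G1), chr18:9613176-9615450 (late G1) and chr20:35917801-35919025 (G2/M). Their early G1 H3K27ac heights were 40.7, 32.9 and 32.7 inside and 58.1, 40.6 and 40.5 outside. Gaps of at most 100 bp were found at 55 of the 2439 regions. Outside the class, on chromosomes with heights, 1881 constant regions were acetylated in early G1 and 1 other phase, and at 311 of them the H3K27ac of the other phase overlapped by at most 100 bp.

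The regions were spread over all chromosomes with heights. Their share of the constant regions of a chromosome ran from 10.8% on chromosome 4 (67 of 622, 8.45 to 13.5) to 19.4% on chromosome 19 (215 of 1110, 17.1 to 21.8). Among constant regions acetylated in early G1, it ran from 26.7% on chromosome 4 to 46.3% on chromosome 16. The next constant region was 25575 bp away at the median, and 23.3% of the regions had one within 2.5 kb (21.6 to 25.02), against 27.7% over all constant regions. Of the constant regions next to them on either side, 18.2% belonged to the same class (17.1 to 19.3), against 15.6% over all constant regions.

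H3K4me1 was about as rare at these regions as at all constant regions. It overlapped 12 in early G1 (0.492%; all constant regions 0.300%), 9 in late G1 (0.369%; all 0.370%), 11 in S phase (0.451%; all 0.670%) and 6 in G2/M (0.246%; all 0.460%). The H3K4me1 lists were short, with 1878 to 6280 peaks. The mark lay within 2.5 kb in at least 1 phase at 241 (9.88%, 8.73 to 11.1; all constant regions 10.8%). Regions acetylated in all 4 phases had it at 21.6% (19.2 to 24.1) and regions with neither H3K27ac nor H3K27me3 at 7.62% (6.91 to 8.37).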

How the data were processed

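Analysis started from 16 ChIP-seq peak lists, 1 per mark and phase, and the 4C table; the 4 inputs were not analysed here. The submitters' processing notes name Bowtie 0.12.7 and 2 genome builds, mm9 and hg19, but not what each was used for. The names of the deposited lists point to HPeak as the caller; its settings and any use of inputs are unknown here. Coordinates are printed as deposited and read as hg19. The lists have no header: the authors' deposited signal column was read as peak height, and a deposited column below 0 throughout as a score, from their values. The score ranked peaks in some alternatives. Heights of 0, which include every peak on chromosomes coded 22 to 24, were treated as missing. Peak lengths and offsets are the authors', deposited in bp on a 25 bp grid. The deposited 4C table holds counts of reads per restriction site. No per-sample column was left unused (0).

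Overlap, merging and class shares were computed with Python 3.11.15, numpy 2.4.6, pandas 2.3.3, scipy 1.17.1 and matplotlib 3.10.9, and the overlap and class code was tested on simulated data. Where peaks of 1 region were several, height was the tallest and width the sum. Regions named were the 8 with the tallest and 4 with the lowest early G1 H3K27ac, the 4 widest and 4 narrowest (chromosomes with heights), the 4 largest and 4 smallest late over early G1 ratios, 6 with H3K27me3 in the most phases, 6 with H3K27ac nearby in all 3 other phases, and 3 on either side of the threshold. The class and the measures were chosen with earlier results of these data known. No gene annotation of the files' build was used, so no gene names or sequences are given and promoters were not told apart from other regions. No p-value was computed.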

Additional observations from a re-analysis of the deposited data

How the results depend on the processing

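The count of 2439 regions stayed within 1.5 times under the other ways of calling overlap (2429 to 2492), merging or shortening the lists (1863 to 2277). The regions themselves changed more: the upper 50% of the H3K27ac lists by score gave 2066, of which 1186 belonged to the 2439, and peaks of at least 200 bp gave 2217, of which 1417 did. The count moved further with lists of equal length, which gave 1459 by height and, added after seeing the data, 1561 by score (10268 peaks each, 695 shared with the 2439). The share with lower relative H3K4me3 height in late G1, 70.4%, was 96.6% with heights as deposited and 55.2% relative to regions acetylated in every phase; ranks and mean heights gave 70.7% and 69.3%. The share with smaller late G1 width, 82.1%, was 57.2% relative to each library's median. The median H3K27ac percentile, 47.98, was 27.7 among constant regions acetylated in early G1. Flank H3K27ac within 1 and 10 kb was 12.4% and 26.5% in late G1, 2.87% and 7.87% in S, and 8.41% and 17.3% in G2/M, against 7.78% and 23.5%, 3.30% and 9.11%, and 5.85% and 15.9% over all constant regions without an overlapping peak. H3K27me3 within 2.5 kb was 10.7%, 9.80%, 6.52% and 7.50% in early and late G1, S phase and G2/M, against 24.6%, 24.3%, 19.2% and 20.95% over all constant regions. No paired analysis was possible because each mark and phase has 1 library and no test was made. Unknown read depth behind each list limits every statement on an absent peak.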

Other observations

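The 4C libraries, which count reads that were ligated to a fragment at GATA6 or SOX17, genes of endoderm transcription factors, gave a readout that did not enter the choice of the regions. HindIII sites lay in 591 of the 2439 regions, against 3685 of the 15661 constant regions and 480 of the 1136 regions acetylated in all 4 phases. Of the 710 sites on other chromosomes than GATA6, 9.15% had at least 1 GATA6 read in early G1 (7.14 to 11.5), and the late G1 share was 9.72% (7.64 to 12.1), 11.97% in S phase (9.68 to 14.6) and 4.08% in G2/M (2.75 to 5.81), against 11.4%, 13.2%, 12.5% and 7.07% for sites in all constant regions and 7.28%, 8.26%, 9.18% and 5.17% for all sites. For SOX17, 692 sites gave 8.24% (6.30 to 10.5), 5.20% (3.67 to 7.13), 8.53% (6.55 to 10.9) and 3.03% (1.89 to 4.60), against 11.4%, 11.002%, 12.8% and 7.38% for all constant regions and 7.55%, 6.44%, 8.23% and 4.37% for all sites.

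In each of these 8 libraries the share at the early G1-only acetylated regions was below that over all constant regions. For GATA6 in early G1 and in S phase the share over all constant regions lay inside the interval. Mean reads per site were higher at the early G1-only acetylated regions for GATA6 in S phase (2.81 against 2.62) and SOX17 in early G1 (3.71 against 3.44). They were lower in each of the other libraries. The libraries differed in depth, from 7491195 reads (SOX17, S) to 17076409 (GATA6, G2/M), and reads of 1 site are not independent molecules, so no comparison is made between phases. The part that region width and the number of sites per region have in the lower share was not tested.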
